A study of Mus musculus with 2 samples.

Results

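Heat shock chaperones and heme oxygenase were read on 2 Affymetrix arrays of mouse embryonic stem (ES) cells. The group was named as 10 genes, Hspa1b, Hspb1, Hsph1, Hmox1, Hspa8, Hspd1, Hspe1, Hsp90aa1, Dnajb1 and Hspa4, and its members are every probe set (a group of array probes summarised to 1 value) that the platform annotation pairs with exactly 1 of these symbols. That gave 21 probe sets for 9 genes, of 28898 named probe sets for 17097 genes in all. Hspd1 was paired with no probe set, so it has no value on the arrays and enters below through its promoter alone. The group was chosen from the difference between these same 2 arrays, so its values below are a description and carry no test.

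Both samples were C57BL/6 ES cells grown on gelatin with leukemia inhibitory factor (ESGRO) and no feeder cells, infected with a lentivirus and selected with puromycin over 72 hours. From each, 2 µg of total RNA was labelled. One received a short hairpin RNA of scrambled sequence (control KD) and the other a hairpin against Tet2 (TET2 KD), a dioxygenase that oxidises 5-methylcytosine; the hairpins were made from the U6 promoter of a retroviral vector with a puromycin marker. Each group is 1 array. There was therefore no replicate spread to hold a difference against, no p-value is given. The small number of arrays limits how precise any value can be.

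Cells answer unfolded protein in the cytosol by releasing heat shock factors, which bind repeats of GAA and its complement in the promoters of chaperone genes. The induced chaperones (HSP70 such as Hspa1b, the small protein Hspb1, the HSP110 exchange factor Hsph1, the J protein Dnajb1) work beside forms that are made at all times, such as Hspa8. Hmox1, heme oxygenase, breaks heme down to biliverdin, iron and carbon monoxide. It is raised by heme and, through the factor NRF2, by oxidants, and also bears the older name Hsp32. ES cells are known for high constitutive chaperone levels.

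The labels were checked first. The targeted gene Tet2 was at 96.2% of the control KD signal in its brighter probe set and at 83.7% in the dimmer one, so it hardly separated the arrays, and each array is called by its label throughout. Xist, which coats the inactive X chromosome, went from 9.34 on the array labelled control KD to 3.62 on the other (log2 signal), and the Y-linked gene Eif2s3y went from 0.89 to 6.14. Among markers of other cell types, 4 of 7 pituitary genes and 6 of 8 genes of olfactory and airway epithelium had a mean at or above the floor of 2.55, the median of all values. Each of those 10 was 2-fold or more lower in the array labelled TET2 KD, and the lists' log2 summed levels went from 11.81 to 6.04 and from 9.37 to 4.81. Among the genes with a mean under the floor, Cga of the pituitary went the other way, from 1.29 to 2.80. Tshb went from 2.02 to 0.62 and Lhb from 2.98 to 1.57. In the epithelium list, Omp and Scgb1a1 differed by 0.12 and -0.11 in their brightest probe sets. Lists for oligodendrocytes, neurons, macrophages, red blood cells and fibroblasts had median differences from -0.14 to 0.052 and no gene past 2-fold at or above the floor. Several of them had high log2 summed levels on both arrays all the same. These were 11.39 and 11.42 for neurons, 10.76 and 10.64 for oligodendrocytes, and 10.39 and 10.33 for red blood cells. Such sums are carried by the brightest genes. The red blood cell gene Hba-a1 alone read 10.39 and 10.33, while Alas2 read 2.95 and 3.02. The neuron gene Snap25 was under the floor on both arrays, and the oligodendrocyte gene Mog read 3.32 and 3.18. Of 11 ES cell markers measured, 8 were at or above it on both arrays, with the list's log2 summed level at 11.62 and 11.63, but Pou5f1 and Nanog, which define these cells, were under it on both. Whether the values belong to the samples as labelled, and to the probe sets they are listed under, could not be settled from the table, and every named value below rests on that pairing. The part of these sex-linked and cell type differences in the values below was not tested. Fewer cells of a type and less RNA per cell cannot be told apart in such bulk samples.

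Of the 21 member probe sets, 19 had a mean at or above the floor, and 7 of these 19 were 2-fold or more higher in the array labelled TET2 KD, beside 0.932% of 16517 named probe sets at or above the floor. None of the 19 was 2-fold lower, beside 1.24% of the 16517 probe sets and 1.41% of genes. With 1 value per gene, that of its brightest probe set, 3 of 9 members were 2-fold higher (Hspa1b, Hspb1 and Hmox1), beside 1.17% of 11174 genes. The members were picked for this difference, so these shares describe the choice. The median log2 difference of the 9 genes was 0.39, and that of all 11174 genes was -0.0071. Among members called, Hmox1 at 1.10 lay nearest the 2-fold threshold, and among those not called, the dimmer probe set of Dnajb1 at 0.75 and Hsph1 at 0.70 did.

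**Figure D1:**
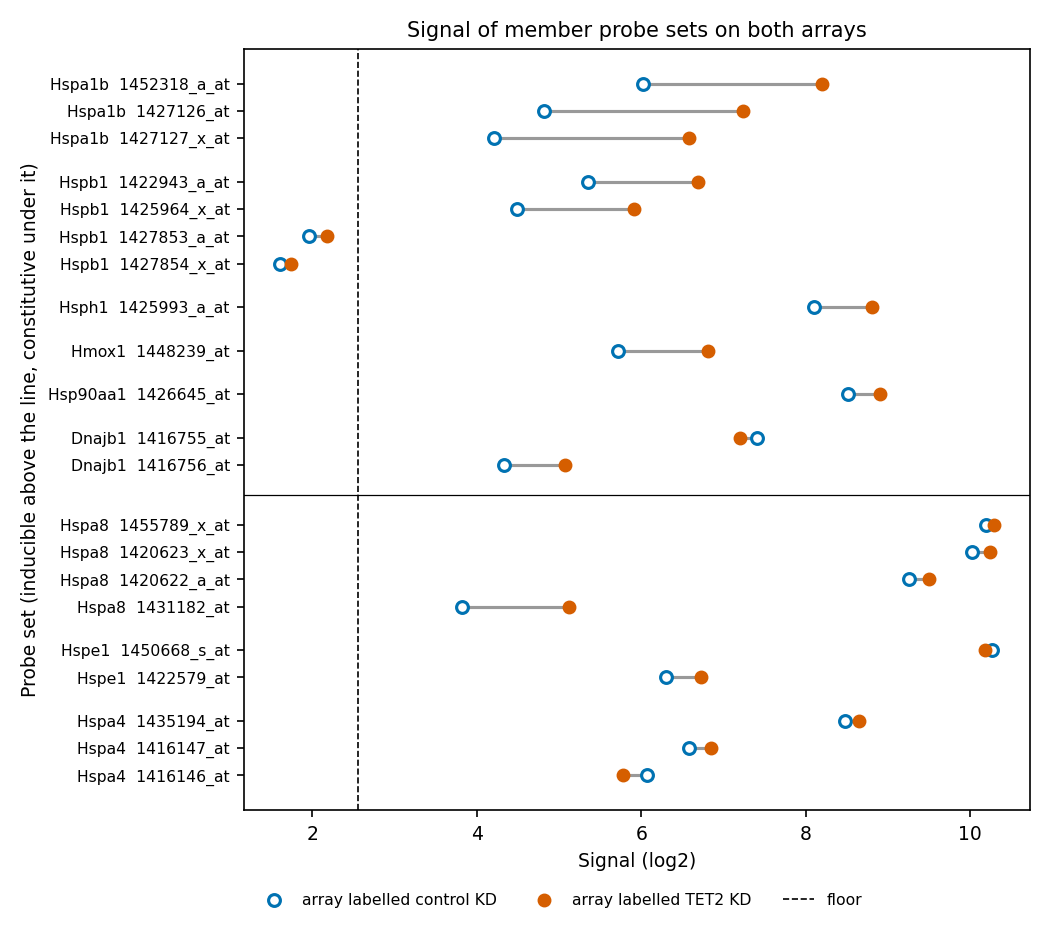
Log2 signal of the 21 member probe sets (vertical axis, gene and probe set name) on the array labelled control KD (open circles) and the array labelled TET2 KD (filled circles), 1 array each, with the floor of 2.55 as a dashed line. The 3 probe sets of Hspa1b are farthest apart, 2 probe sets of Hspb1 lie under the floor on both arrays, and the bright probe sets of Hspa8 and Hspe1 nearly coincide.

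Of the 6 genes whose transcription heat or oxidants raise strongly, 3 were 2-fold higher, beside 1.17% of all genes. Hspa1b differed by more than any other member. Hspa1b encodes an HSP70 that is scarce in unstressed cells and binds unfolded protein. Its brightest probe set read 6.02 on the array labelled control KD and 8.20 on the array labelled TET2 KD, which is 4.53-fold apart. The second read 4.81 and 7.24, 5.38-fold apart. The third read 4.21 and 6.58, 5.14-fold apart. All 3 were thus higher on the same array, with log2 differences from 2.18 to 2.43. The annotation traces all 3 to the same source transcript, so they are not 3 separate sources. Of the 16517 probe sets, 24 or fewer differed by as much upward. Among probe sets within 0.5 of the brightest one's mean signal, the central 95% of differences ran from -0.66 to 0.42. Hspa1b has a near-identical neighbour, Hspa1a, which no probe set names here, and the deposited values do not show how far the Hspa1b probe sets also read Hspa1a.

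Hspb1, a small heat shock protein that holds unfolding protein in a soluble state, differed by less. Its brightest probe set read 5.35 and 6.69, 2.54-fold apart, and the next 4.49 and 5.91, 2.68-fold apart. The remaining pair stayed under the floor throughout, one at 1.96 and 2.19 and the other at 1.61 and 1.74, and is not read as a level. The gene's difference was 1.34 in its brightest probe set and 0.78 in the mean of all 4, which is short of 2-fold.

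The promoters of Hspa1b and Hspb1 are shown because these were the 2 genes on the arrays with 2 or more probe sets at or above the floor of which every one was 2-fold higher, of 3654 genes with 2 or more (0.0547%). The sequences are RefSeq's for build GRCm38.p6, the 250 bases before the transcription start, 5′ to 3′ on the gene's own strand, and lie at chr17:34959239-34959488 (minus strand) and chr5:135887669-135887918 (plus strand), in no annotated gene. Capitals mark the fixed letters of GAANNTTC or TTCNNGAA, 2 inverted repeat units of the heat shock element.
Hspa1b: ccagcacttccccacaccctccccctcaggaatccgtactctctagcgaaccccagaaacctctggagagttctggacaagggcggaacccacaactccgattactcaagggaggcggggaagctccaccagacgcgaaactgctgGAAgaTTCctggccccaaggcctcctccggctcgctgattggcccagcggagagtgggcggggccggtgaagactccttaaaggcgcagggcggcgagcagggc
Hspb1: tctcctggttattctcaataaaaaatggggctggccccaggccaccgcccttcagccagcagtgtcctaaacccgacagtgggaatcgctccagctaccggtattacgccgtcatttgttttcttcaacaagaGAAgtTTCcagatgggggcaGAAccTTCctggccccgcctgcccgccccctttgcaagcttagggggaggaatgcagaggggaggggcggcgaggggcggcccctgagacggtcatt
The Hspa1b stretch held 1 such match, from base -104 to base -97 counted from the start, and the Hspb1 stretch 2, beginning at -117 and -97. Over these 250 bases Hspa1b and Hspa1a were identical at 247 positions (98.8%), without gaps, and Hspa1a held its match at the same place.

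Hmox1 was measured by 1 probe set, so no second reading of it exists on these arrays. It read 5.71 on the array labelled control KD and 6.81 on the array labelled TET2 KD, 2.14-fold apart. The central 95% of differences at like signal ran from -0.77 to 0.45. Hsph1, which exchanges the nucleotide of HSP70, also had 1 probe set, at 8.10 and 8.80, 1.63-fold apart. It was outside the central 95% at its signal, -0.50 to 0.31, though short of 2-fold. Hsp90aa1, the inducible cytosolic HSP90, read 8.51 and 8.90 in its 1 probe set, 1.31-fold apart, beside a central range of -0.59 to 0.30 for a log2 difference of 0.39.

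Dnajb1, the J protein that delivers substrate to HSP70, was the inducible member whose probe sets disagreed. Its brighter probe set read 7.40 and 7.20, a difference of -0.20, and the dimmer one 4.33 and 5.08, a difference of 0.75. The annotation traces both to the same source transcript. The brighter one lay inside the central range at its signal, -0.66 to 0.42, and the dimmer one above its own, -0.89 to 0.48. No direction is given for the gene.

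The constitutive members differed by -0.09 to 0.17 in their brightest probe sets. Hspa8, the HSP70 present in unstressed cells, read 10.19 and 10.29 in its brightest probe set. The next 2 read 10.03 and 10.24, and 9.26 and 9.49. These 3 differed by 0.10 to 0.23, while the fourth and dimmest, 3.82 and 5.12, differed by 1.30. The third, at 0.23, lay just above the central range at its signal, -0.20 to 0.22, and the fourth above its own, -0.87 to 0.47. The dimmest is the 1 of 9 constitutive probe sets past 2-fold, beside 0.932% of all named probe sets that were 2-fold higher. Where on the Hspa8 gene it lies is not known here. Hspa8 has many processed copies in the genome, which the probe sets may also read.

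Hspe1, the mitochondrial co-chaperonin that caps the Hspd1 chamber, gave opposite signs. Its bright probe set read 10.27 and 10.18, a difference of -0.09, and the dimmer one 6.30 and 6.73, a difference of 0.43. Hspa4, a constitutive HSP110, read 8.47 and 8.64, 6.59 and 6.84, and 6.07 and 5.78. Its differences of 0.17, 0.26 and -0.29 all lay inside the central ranges at their signal. Neither gene had a probe set past 2-fold.

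The inducible members had a median difference of 0.90 over 6 genes and the constitutive members of 0.097 over 3. Without probe sets whose names end in _s_at, _x_at or _a_at the medians were 0.74 and 0.43, and Hspa8 was past 2-fold at 1.30. Hspb1 and Hsph1 then had no probe set left. By gene, 3 of 6 inducible and 0 of 3 constitutive members were 2-fold higher, beside 1.17% of all genes. By probe set, 6 of 10 and 1 of 9 at or above the floor were, beside 0.932% of all named probe sets. The group was picked for this difference, so these counts describe the choice. The ordering by brightest probe set was Hspa1b, Hspb1, Hmox1, Hsph1, Hsp90aa1, Hspa4, Hspa8, Hspe1 and Dnajb1, but the differences among probe sets of Dnajb1 and of Hspa8 each span several places of this order below Hspb1.

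Agreement among probe sets differed between members. Over the 3654 genes with 2 or more probe sets at or above the floor, the median range of log2 differences within a gene was 0.17. The range was 0.078 for the 2 such probe sets of Hspb1 and 0.25 for the 3 of Hspa1b, which trace to the same source transcript. It was 0.52 for Hspe1, 0.55 for Hspa4, 0.95 for Dnajb1 and 1.21 for Hspa8, and 2.24% of genes had a range as wide as that of Hspa8. Signs differed within Hspe1, Dnajb1 and Hspa4, as they did within 53.1% of the 3654 genes. Of these genes, 44 had 1 or more probe sets at or above the floor that were 2-fold higher. In 2 (4.55%) all probe sets at or above the floor were, and these were Hspa1b and Hspb1, members picked for this difference. The 2 probe sets of Hspb1 under the floor were not 2-fold higher and are left out of this count.

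**Figure D2:**
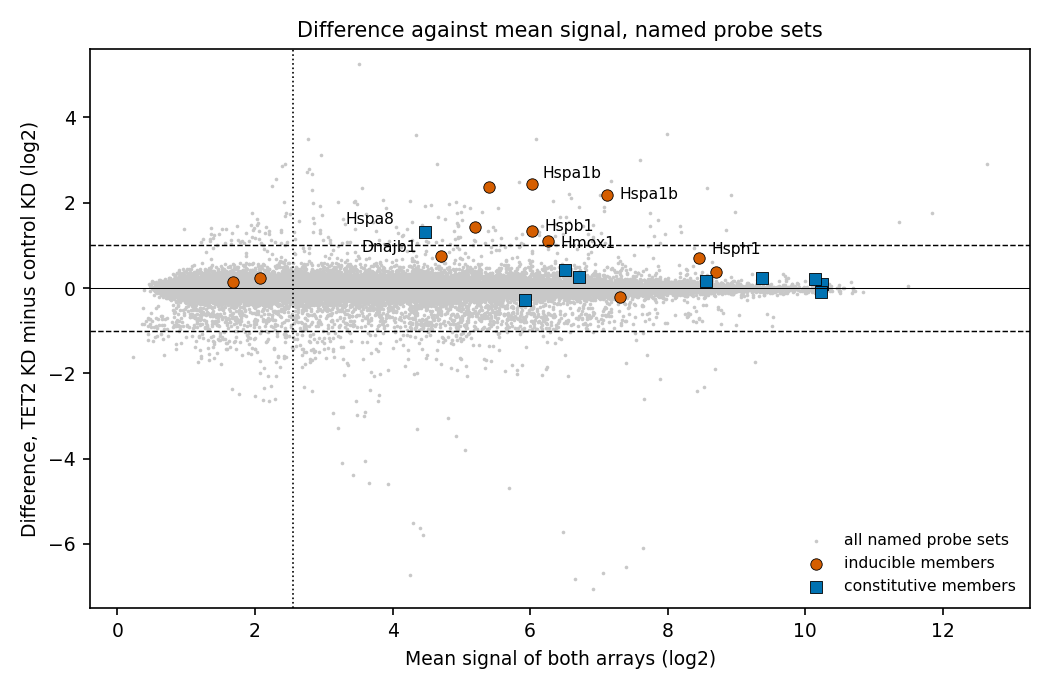
Log2 difference (TET2 KD minus control KD) against the mean log2 signal of both arrays for the named probe sets (grey), with inducible (orange circles) and constitutive (blue squares) members; dashed lines mark 2-fold and the dotted line the floor. The 3 Hspa1b probe sets stand at 2.18 to 2.43, and 1 constitutive probe set, of Hspa8, stands above the 2-fold line.

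Some equal values touch the members. The control KD value of 1 Hspa1b probe set, 4.21, was shared to every deposited digit with 15 other probe sets of that array, that of Hmox1 with 6 others and that of the brighter Dnajb1 probe set with 1 other. No member shared its TET2 KD value. The other 2 probe sets of Hspa1b, traced to the same source transcript, shared neither value and differed by 2.18 and 2.43. For Hmox1 no other reading exists. Of 45037 probe sets other than controls, 12.4% shared a value with another on the array labelled control KD and 11.6% on the other array.

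Few chaperone genes outside the group were past 2-fold by their brightest probe set, the measure counted here. The lists of chaperones, cochaperones, heat shock factors and their targets held 61 such genes at or above the floor, of which 1 was 2-fold higher (1.64%, beside 1.17% of all genes) and 1 lower, with a median of 0.0041. The gene that was higher is Hspa1l, an HSP70 made mainly in testis whose gene lies next to Hspa1a. Its 1 probe set read 5.48 and 6.78, a difference of 1.31, and whether it also reads Hspa1a or Hspa1b is not known here. The lower one is Serpinh1, the collagen chaperone of the endoplasmic reticulum and a target of heat shock factors, at 5.29 and 4.04, with both probe sets lower (-1.25 and -1.43).

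Of 7 small heat shock proteins measured beside Hspb1, 2 were at or above the floor, and both differed upward short of 2-fold. Cryab, alpha-B crystallin, read 7.89 and 8.44, and its 2 probe sets at or above the floor differed by 0.54 and 0.77. Hspb8, the partner of Bag3 in selective autophagy, read 6.42 and 6.80, and its 3 probe sets differed by 0.31 to 0.37. The other 5 had a mean under the floor. Of 9 further HSP70 family genes 4 were above 0 by brightest probe set, among them Hspa5 of the endoplasmic reticulum at 0.60. The second probe set of Hspa5 went the other way, at -1.37, past 2-fold lower. The average of both was -0.38, so that its direction is not settled. Hspa12a, a distant relative, differed by -0.41.

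The helpers of HSP70 and HSP90 differed in both directions, none by 2-fold in its brightest probe set. Of 16 J proteins 9 were above 0, with Dnaja4 at 0.44, Dnajb5 at 0.40 (-0.18 in another probe set) and Dnajc7 at -0.27. None was past 2-fold. Of 17 cochaperones 6 were above 0. The steroid receptor partner Fkbp5 stood lowest at -0.94 (-0.27 when its probe sets were averaged), and Ppid, a cyclophilin, was at 0.29. Cdc37, which loads kinases on HSP90, was at -0.27 in its brightest probe set and at 0.064 in its other one. Bag3, a strongly heat-inducible nucleotide exchange factor, read 5.43 and 5.30. The cytosolic chaperonin and prefoldin genes ran from -0.057 to 0.20 over 12, with Cct5 and Cct4, chaperonin subunits, at 0.20 and 0.19 and the subunit Cct7 at 0.15. In the HSP90 family, the reticulum form Hsp90b1 was at 0.36 by its brightest probe set and at -1.27, past 2-fold lower, by its other one. The average of both was -0.45, so that its direction is not settled. The mitochondrial Trap1 was at -0.043. Hsp90ab1 and Hsf1 were paired with no probe set.

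Other genes that heat shock factors are known to drive stood on both sides of 0. Of 9 at or above the floor, 3 were above 0 (Cryab, Hspb8 and, named after its value was seen, the J protein Dnaja1 at 0.26). The other 6 were below, Serpinh1 and Bag3 among them. Of these 6, all but Serpinh1 lay within 0.146 of 0, the robust SD of gene differences, while the 3 above 0 were past it. Hsf2, a heat shock factor, read 2.56 and 2.65, close to the floor, and Hsbp1, a factor-binding protein, differed by -0.059.

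None of the genes listed with Hmox1 was past 2-fold. Of 16 genes of the NRF2 and oxidant response at or above the floor, 8 were above 0, with a median of -0.022. Nfe2l2, which encodes NRF2, read 8.23 and 8.18, and its target Nqo1, a quinone reductase, 3.33 and 3.19. By brightest probe set, the largest differences were -0.31 for the cystine carrier Slc7a11, under the floor on the array labelled TET2 KD, -0.22 for glutathione reductase Gsr and -0.20 for the small MAF protein Maff. Srxn1, sulfiredoxin, named after its values were seen, differed by 0.096 in its brightest probe set, but its 3 probe sets at or above the floor ran from 0.087 to 0.97, the last close to the 1.10 of Hmox1. In heme breakdown and iron storage, 6 genes ran from -0.11 (Fth1, the ferritin heavy chain) to 0.059 (Ftl1, the light chain). The constitutive heme oxygenase Hmox2 read 7.62 and 7.61, and the biliverdin reductase Blvra differed by -0.093.

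**Figure D3:**
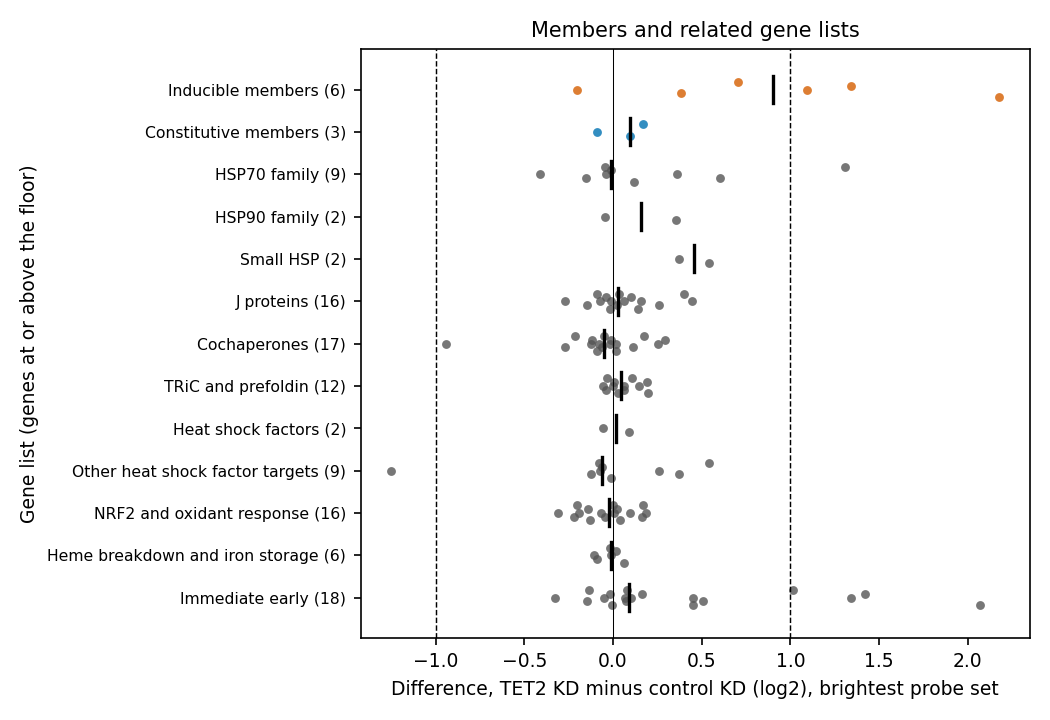
Log2 difference (TET2 KD minus control KD) of the brightest probe set of each gene at or above the floor, 1 point per gene, by list, with the list median as a black bar and 2-fold as dashed lines; genes can stand in more than 1 list. Inducible members have their median at 0.90, while the medians of the J proteins, cochaperones and NRF2 genes are 0.026, -0.050 and -0.022.

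Immediate early genes, which stress and serum switch on within minutes, held large differences too. Of 18 at or above the floor, 4 were 2-fold higher, beside 1.17% of all genes, and none lower, with a median of 0.088. They were the AP-1 subunits Fosb, at 2.83 and 4.90, and Fos, at 4.76 and 6.18, and the factors Klf10 (1.34) and Klf4 (1.01). Klf4 was at 0.51 in its second probe set and at 0.76 when its probe sets were averaged, which leaves 3 genes past 2-fold. With no floor, 6 immediate early genes were 2-fold higher. Nr4a1, at 1.41 and 3.43, and Egr2, at 1.36 and 2.55, both with a mean under the floor, then counted too. Others were flat, such as the growth response factor Egr1 at 5.69 and 5.63, the phosphatase Dusp1 at 8.09 on both arrays and the stress factor Atf3 at 4.16 and 4.02, these 3 named after their values were seen. Their part in the members' differences was not tested.

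The heat shock element was also searched in the other members' promoter windows of 300 bases, 250 before and 50 after the start, on both strands. Of 7 members with a window, 5 held a pair of units, GAANNTTC or TTCNNGAA, which 17.0% of 27025 genes (15.1% of 32851 windows) held. They were Hspa1b, Hspb1, Hsph1, Hspe1 and Hspd1. A run of 3 units, GAANNTTCNNGAA or TTCNNGAANNTTC, which overlaps 2 pairs, stood in Hsph1, Hspe1 and Hspd1, beside 0.662% of all genes (0.603% of windows). In Hsph1 the run lies after the start, and Hspd1 and Hspe1, which stand head to head, share the same bases. Hspa1b and Hspb1, with the largest differences, held pairs and no run of 3. Dnajb1 and Hspa4 held neither. The 30 bases around the matches before the start are shown for Hsph1 (chr5:149636351-149636380, minus strand) and Hspe1 (chr1:55088053-55088082, plus strand), both within annotated gene spans, the second that of Hspd1, since their differences were 0.70 and -0.09. Capitals again mark the fixed letters of a pair.
Hsph1: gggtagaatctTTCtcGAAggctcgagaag
Hspe1: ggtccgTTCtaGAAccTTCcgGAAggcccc
A match describes letters and not a bound site. Over the arrays, 55 genes at or above the floor held the run of 3 in a window, and none of them was past 2-fold in either direction, with a median of -0.00073. Hsph1, of the group chosen for this difference, had the largest upward difference of the 55. Leaving out the members, 53 genes with the run remained, 0 of them past 2-fold, with a median of -0.00073. Of 1244 genes with a pair, 18 (1.45%) were 2-fold higher, beside 1.13% of 9019 genes with any window. Without the members, which were chosen for this difference, they were 16 of 1240 (1.29%).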

How the data were processed

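Per the submitters' processing notes, Affymetrix Expression Console produced the deposited table, which gives a log2 signal for each probe set on each array. No source used here names its version, summary method, background correction or normalization. Base 2 was read from the values, since as natural logarithms the control KD maximum would exceed 65535, the limit of a 16-bit scanner. Gene names come from the platform annotation, updated by gene ID through RefSeq names of GRCm38.p6. Of 45037 probe sets other than controls, 28898 have 1 symbol, 551 several and 15588 none, and those with several or none were left unnamed.

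Differences are TET2 KD minus control KD in log2, called at 2-fold. A gene is represented by its brightest probe set, and counts use those with a mean at or above the floor, the median of all values. The members and lists were chosen with earlier results of these data known. Named outside the members were Tet2, set partners, and in each list all genes past 2-fold and up to 3 of the largest differences; others, including Xist and Eif2s3y, were chosen after their values were seen. Alternatives covered scaling, floor, probe set rule and threshold. Promoters are from RefSeq. Python 3.11.15, numpy 2.4.6, pandas 2.3.3 and matplotlib 3.10.9 were used.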

Additional observations from a re-analysis of the deposited data

How the results depend on the processing

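With 1 array per group, leaving out an array was not possible. No paired analysis was possible because each group has 1 array. Of 222 values recomputed for 28 results under 9 alternatives, 204 stayed within the robust SD of gene differences (0.146) or within 1.5 times a count. The floor settings left each member gene's difference as it was, so many of the 204 had no room to move. The other 18 moved, and 0 differences called at 2-fold changed sign. Smaller differences were not counted so. Among them Hspe1, Dnajb1 and the HSP90 family median changed sign in the mean of all probe sets. In the mean of all probe sets Hspb1 was 0.78, Hspa8 0.46, Hspe1 0.17, Dnajb1 0.27, the inducible median 0.74 and the HSP90 family median -0.26, and 2 members (Hspb1 lost) and 3 immediate early genes (Klf4 lost) stayed 2-fold higher. Without probe sets whose names end in _s_at, _x_at or _a_at, Hspa1b was 2.43, Hspa8 1.30 (past 2-fold) and Hspe1 0.43. The inducible median was then 0.74 and the constitutive median 0.43, and Hspb1 and Hsph1 had no probe set left. The same setting, and the floor at the 75th percentile, left 0 related genes 2-fold lower. That floor put the HSP70 family median at 0.24, and the floor at the 25th percentile or no floor put the small heat shock protein median at 0.13. At 1.5-fold, 2 related genes were higher and 2 lower. Median centring and quantile normalization moved no member by more than 0.146. The array number, the single probe set of Hmox1, Hsph1 and Hsp90aa1, and the unknown normalization limit these values.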
